A study of Mus musculus with 10 samples.

Results

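Mice 706, 720, 725 and 746 each gave 2 RNA sequencing libraries, one of cells sorted from mammary tumor as macrophages and the other of whole tumor. These 8 libraries, of 10 in the series, were chosen because their labels carry the same mouse number in both tables, and sorted cells were compared with tumor within each mouse. The labels do not say whether both libraries of a mouse came from the same tumor, and tumors were chosen in size-matched pairs whose partners they do not name. All 10 libraries came from B6:MMTV-PyMT mice that were Cxcr4fl/fl and 15 weeks old, so the floxed Cxcr4 allele was shared by every group. Mice 725 and 746 also carried LysmCre (here cKO), and mice 706 and 720 were littermates without Cre (here control); the sample titles call the control macrophages wild type for Cxcr4. Sorted cells of mice 775 (control) and 867 (cKO) had no tumor library among the samples used here, entered no paired test and are given as values beside the other 4.

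In MMTV-PyMT mice a viral oncogene, polyoma middle T, is driven by a mammary tumor virus promoter in the mammary epithelium, so the tumor mass is largely luminal epithelium with blood vessels, fibroblasts, matrix and infiltrating leukocytes around it. Tumor macrophages come from circulating monocytes and from cells resident in the gland. They are known for engulfing debris, for presenting antigen on MHC class II and for releasing chemokines and growth factors. F4/80 (Adgre1) and CD11b (Itgam), the antigens stained for the sort, are surface proteins of macrophages and of myeloid cells more broadly. CXCR4 is the receptor of the chemokine CXCL12, and Cre under the lysozyme promoter of LysmCre acts in macrophages, monocytes and neutrophils.

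Sorted libraries held 14.4 to 25.2 M reads and tumor libraries 34.2 to 53.4 M reads (M, 1e+06), as inferred from the steps between low values. Levels are counts per 1e+06 (CPM) after each library was rescaled to 1e+06 over the 13600 protein-coding genes listed in both tables, which took 67.5% to 79.9% of the reads in sorted libraries and 49.7% to 56.5% in tumor libraries. A gene listed at 0 could have held up to 0.153 to 0.284 CPM in a sorted library and up to 0.106 to 0.173 CPM in a tumor library (3 reads, counting error only). Differences are log2(CPM + 1), sorted minus tumor, fitted with limma with the mouse as a block. A fold is that difference undone, which understates changes of weakly expressed genes. The sorted cells had been dissociated with enzymes, stained and sorted, whereas the tumors had been snap frozen, and the 2 kinds of library were normalized in separate tables: cell content, handling and library preparation cannot be told apart in any difference below.

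Sorted cells and whole tumor differed across a large share of the coding genes, with leukocyte, stress-response and inflammatory genes on one side and matrix, myoepithelial and smooth muscle genes on the other. Of 12919 genes tested, 1874 were higher in sorted cells (14.5%) and 2410 were lower (18.7%) at a limma adjusted p under 0.05. Left out of this split were 1549 protein-coding genes listed for the sorted libraries alone and 514 listed for the tumors alone. The difference was higher in 4 of 4 mice for 1753 of the first and lower in 4 of 4 mice for 2277 of the others. It exceeded 1 log2 unit for 1440 genes called higher and 1469 called lower, and 3 log2 units for 358 and 137. The median difference of all tested genes was -0.12, with mouse medians from -0.23 to 0. The split of calls rests on the scaling: with the deposited scaling over all listed genes, 3538 genes were higher and 1049 lower and the median of all genes moved to 0.37, and with trimmed mean factors the counts were 2104 and 1997. Within a material, the median gene had an SD of 0.47 log2 units over the 4 sorted libraries and 0.49 over the 4 tumors.

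**Figure D1:**
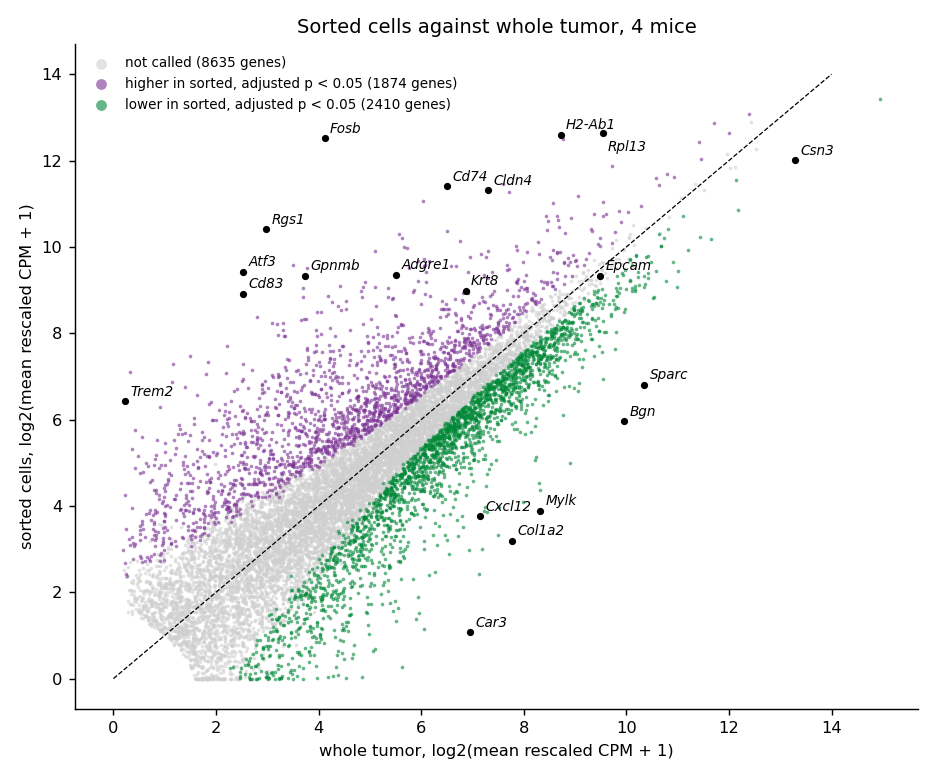
Each point is a tested gene, placed by its mean level in 4 whole tumors (horizontal axis) and in sorted cells of the same 4 mice (vertical axis), both as log2(rescaled CPM + 1); the dashed line marks equal levels. Fosb stands farthest above the line (5837 CPM in sorted cells and 16.3 in tumor), and Sparc, Mylk, Col1a2 and Car3 lie below it.

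Genes that define macrophages were higher in sorted cells than in tumor. Adgre1 and Itgam encode the antigens stained for the sort, so their rise is not independent of the sort and does not test the label. Adgre1, which encodes F4/80 (ENSMUSG00000004730, chromosome 17 from 57358691 to 57483527 in GRCm38), was at 606, 609, 753 and 639.5 CPM in sorted cells of mice 706, 720, 725 and 746 and at 45.8, 35.1, 53.7 and 44.4 CPM in their tumors. The lowest sorted library was above the highest tumor by more than the range within either material, and the difference was 3.84 log2 units (SE 0.17, limma adjusted p = 6.2e-19), a 14.4-fold higher level. Csf1r, the receptor of the macrophage growth factor CSF1, was at 627, 473, 474 and 573 CPM in sorted cells and 30.8, 38.9, 33.3 and 30.4 CPM in tumors, a difference of 3.97. C1qa, a chain of complement C1q that tissue macrophages make, was at 275, 217, 193 and 386 CPM against 14.3, 4.21, 10.4 and 6.65 CPM. The materials did not overlap for Csf1r or for C1qa, whose difference was 4.83 (SE 0.29). Itgam (CD11b), whose position overlaps that of a predicted gene, was at 153, 171, 92.8 and 109 CPM against 18.8, 14.5, 4.03 and 8.64 CPM (3.54). Ptprc, which encodes the leukocyte antigen CD45, was at 645, 533, 597 and 583 CPM against 53.9, 88.1, 63.4 and 35.8 CPM (3.34, limma adjusted p = 4.4e-16). In bulk RNA, fewer cells of a type and less RNA per cell cannot be told apart, here and in every comparison with tumor.

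Of 23 tested macrophage identity genes, 22 were higher in sorted cells and none was lower, with a median difference of 3.84 against -0.12 for all tested genes. The 22 include Adgre1 and Itgam, which encode the sort antigens, and the median is the difference of Adgre1 itself. For these genes the rise does not test the label. The summed level of the list was 8084, 7259, 7295 and 8312 CPM in sorted cells of the 4 mice and 618, 653, 644 and 607 CPM in the tumors. Ctss, a lysosomal protease used in antigen processing (4.82), and Cybb, the membrane subunit of the phagocyte oxidase (3.74), were among the genes called higher. The gene not called was Lyz2, myeloid lysozyme, whose promoter drives LysmCre. Its level as counted was low in both materials, at 4.23, 0.168, 6.17 and 1.72 CPM in sorted cells and 0.229, 5.30, 0.106 and 0 CPM in tumors (limma adjusted p = 0.433), and the ranges overlapped. Counting settings are not given in the sources used here, and whether all reads of Lyz2 were counted was not tested. Of 12 pan-leukocyte genes, 10 were higher and none lower (median 3.31). Lcp1, an actin-bundling protein of leukocytes, differed by 1.69, and Cytip, a leukocyte scaffold protein, by 0.62.

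**Figure D2:**
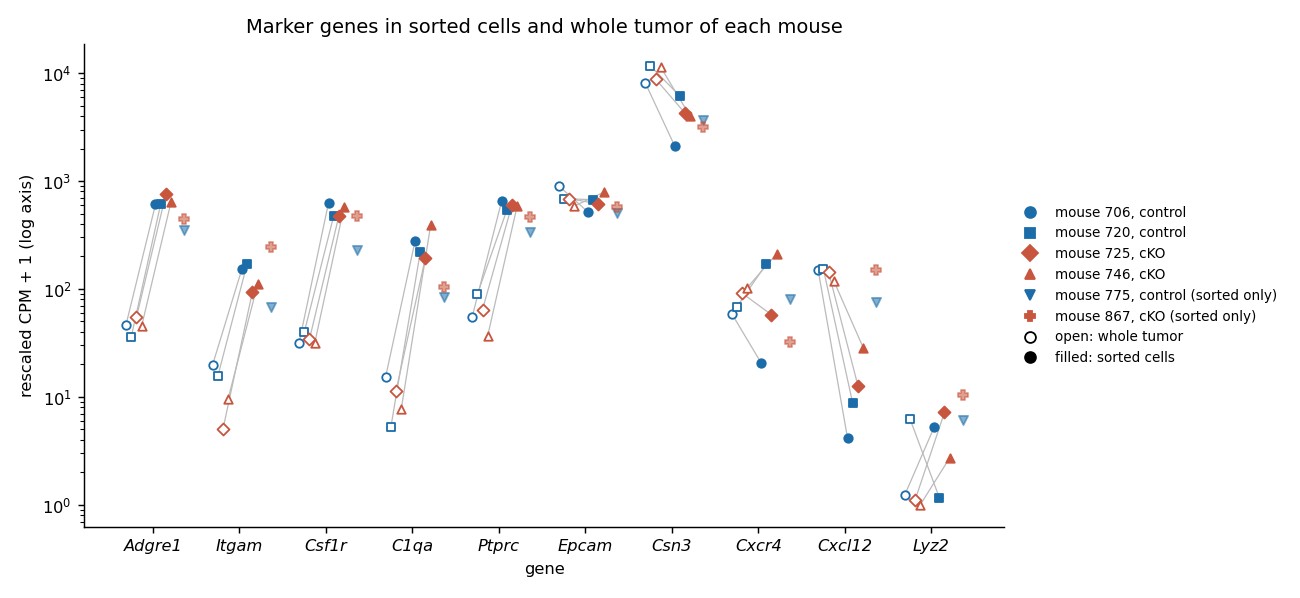
Levels of 10 marker genes (rescaled CPM + 1, log axis) in whole tumor (open) and sorted cells (filled) of the 4 mice, with lines joining the libraries of a mouse and the sorted cells of mice 775 and 867 drawn at the right of each gene. Adgre1, Itgam, Csf1r, C1qa and Ptprc rise in every mouse, Epcam overlaps between the materials, and Csn3 and Cxcl12 fall in every mouse.

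PU.1 is a transcription factor of the ETS family that myeloid cells need, and its gene, Spi1, was at 17.2, 23.1, 22.3 and 41.4 CPM in sorted cells and 1.71, 0, 0 and 0 CPM in tumors. Promoters of RefSeq (GRCm38.p6, 250 bases before to 50 after the start) were searched for the PU.1 motif GAGGAAGT, which holds the GGAA core shared by ETS factors, on either strand because macrophage genes moved together. The motif was held by 3.69% of 27025 genes with a promoter, by 3.74% of 10183 tested genes, by 6.91% of 1462 genes called higher and by 2.75% of 1856 genes called lower, as a description without a test. Among macrophage identity genes 2 of 14 with a promoter held it, C1qc and Ctss, and among pan-leukocyte genes 2 of 10 did, with Cd53 shown here. A match describes the letters and is not evidence of binding. In the printed strand, which is that of the gene, each of the 3 matches reads as the reverse complement ACTTCCTC, marked in capitals; it starts 195 bases before the annotated start in C1qc, 2 bases before it in Ctss and 6 bases after it in Cd53.
C1qc promoter, chr4:136892865-136893164, minus strand: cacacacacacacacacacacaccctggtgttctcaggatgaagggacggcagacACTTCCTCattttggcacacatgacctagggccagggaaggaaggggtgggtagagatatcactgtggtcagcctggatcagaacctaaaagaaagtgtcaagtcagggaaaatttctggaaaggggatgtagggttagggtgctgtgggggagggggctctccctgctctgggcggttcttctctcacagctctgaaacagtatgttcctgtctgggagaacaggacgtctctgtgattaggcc
Ctss promoter, chr3:95526536-95526835, plus strand: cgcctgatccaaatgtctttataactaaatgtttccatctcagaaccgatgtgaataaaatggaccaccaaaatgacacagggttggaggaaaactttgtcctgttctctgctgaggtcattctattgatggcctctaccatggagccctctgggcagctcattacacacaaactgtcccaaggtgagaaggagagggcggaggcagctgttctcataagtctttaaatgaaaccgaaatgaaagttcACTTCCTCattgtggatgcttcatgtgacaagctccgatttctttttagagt
Cd53 promoter, chr3:106790100-106790399, minus strand: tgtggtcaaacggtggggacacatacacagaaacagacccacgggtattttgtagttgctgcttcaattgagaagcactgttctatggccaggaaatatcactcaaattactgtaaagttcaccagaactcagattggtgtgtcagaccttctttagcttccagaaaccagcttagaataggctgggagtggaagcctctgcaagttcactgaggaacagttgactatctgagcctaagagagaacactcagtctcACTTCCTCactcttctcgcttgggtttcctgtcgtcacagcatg
C1qc, the third chain of C1q, was at 274 to 384 CPM in sorted cells and 8.29 to 15.6 CPM in tumors (4.67). Ctss was at 708 to 1139 against 25.3 to 41.9 CPM, and Cd53, a tetraspanin of leukocytes, at 146 to 278 against 10.2 to 28.1 CPM (3.28). None of the 3 overlapped between the materials.

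Genes of antigen presentation and of immune receptors were among the most raised groups. MHC class II molecules display peptides to helper T cells, and 7 of 8 tested genes of that list were higher in sorted cells (none lower, median 3.66). H2-Ab1, a class II beta chain, was at 9075, 3846, 6251 and 5547 CPM in sorted cells and 416, 396, 547 and 322 CPM in tumors, and H2-Aa, the matching alpha chain, at 5821 ± 1475 against 436 ± 78.8 CPM (mean ± SD, n = 4 each). Among the 4 paired mice, 706 had the highest H2-Ab1 in sorted cells and 720 the lowest, and the materials did not overlap. Cd74, the class II chaperone and a receptor of the cytokine MIF, was at 2721 ± 653 against 89.2 ± 10.7 CPM (4.89, limma adjusted p = 6.9e-22). Each of 10 tested genes of Fc receptors and signaling through immune tyrosine motifs (ITAM) was higher (median 4.07), among them Clec7a, the receptor of fungal beta-glucan (4.66), Fcgr2b, the inhibitory IgG receptor (3.02), and Sirpa, which reads CD47 on other cells (2.61).

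Toll-like receptor genes split by member. Of 14 tested genes of Toll-like receptors and their helpers, 10 were higher in sorted cells and 1 was lower (median 2.48). Cd14, the co-receptor for bacterial lipopolysaccharide, rose by 3.24, Tlr2, a receptor for bacterial lipoproteins, by 2.87, and Unc93b1, which carries Toll-like receptors to endosomes, by 3.34. Tlr4, the lipopolysaccharide receptor itself, was at 168 ± 11.9 CPM in sorted cells and 213 ± 32.9 CPM in tumors (SD, n = 4 each; limma adjusted p = 0.143), and the sign of its difference of -0.33 turned with the deposited scaling. Tlr3, which reads double-stranded RNA, was lower, at 74.6, 119, 72.4 and 77.8 CPM in sorted cells and 171, 268, 163 and 177 CPM in tumors (-1.17). The sorted range of Tlr3 lay below the tumor range without overlap.

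Genes linked to macrophage states did not move as a block. Of 9 monocyte genes, 7 were higher and 1 was lower (median 2.06). Ccr2, the receptor that draws monocytes out of blood, was at 227 ± 33.3 CPM in sorted cells and 76.3 ± 28.8 CPM in tumors (SD, n = 4 each; 1.63), Ms4a4c rose by 3.30, and Vcan, the proteoglycan versican, which fibroblasts also make, was lower by the same test (-2.91). Of 12 lipid-associated macrophage genes, 10 were higher and none lower (median 2.09). Trem2, a lipid receptor of such cells, was at 145, 73.9, 76.6 and 44.2 CPM in sorted cells and at 0.15 to 0.177 CPM in every tumor, near the limit that 3 reads allow. Gpnmb, a lysosomal membrane glycoprotein, rose by 6.07, Ctsd, a lysosomal protease, by 2.12, and Spp1, osteopontin, by 0.75; the Spp1 call was lost without the mouse block. Of 11 tissue-resident macrophage genes, 5 were higher, none was lower and the median was 0.27. With the deposited scaling 6 of 10 were higher and the median was 1.27. Stab1, a scavenger receptor, rose by 3.46, and Mrc1, the mannose receptor CD206, by 1.53, while Cd163, the hemoglobin scavenger receptor, was at 7.01, 20.3, 15.6 and 14.4 CPM against 12.97, 4.21, 17.1 and 14.6 CPM with overlapping ranges (limma adjusted p = 0.75). In the sorted cells outside the pairs Cd163 was at 51.1 in mouse 775 and 186 in mouse 867. Mrc1 was at 221 and 651 and Ccr2 at 404 and 1257 in the same order. For these genes both libraries lay above every tumor, while Spp1 (1148 and 835) lay within the tumor range.

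Markers of other leukocytes went in mixed directions. In the dendritic cell list 2 of 8 tested genes were higher and 1 lower, and in the neutrophil list 2 of 4 were higher and none lower. Among all tested genes 14.5% were higher and 18.7% lower. These lists are short, and their counts were not tested against those shares. Siglech, a lectin of plasmacytoid dendritic cells, was at 42.6, 10.1, 45.3 and 21.2 CPM in sorted cells and 0.0571, 3.75, 0 and 0.2 CPM in tumors, and Csf3r, the receptor of granulocyte growth factor, at 33.5, 63.2, 33.4 and 50.5 against 2.69, 0.115, 7.77 and 0.05 CPM. S100a8, an abundant neutrophil calcium-binding protein, was at 7.68, 7.02, 1.87 and 0.127 against 0, 8.94, 2.58 and 0.15 CPM, above the tumor of the same mouse in mouse 706 only (limma adjusted p = 0.606). Of 8 T cell genes 1 was higher and 2 were lower, the higher gene being Cd4 (9.04 to 10.8 against 0 to 3.25 CPM), the co-receptor of helper T cells, while Lck, the kinase of the T cell receptor, and Thy1, which fibroblasts also carry, were lower. The Lck call was lost when mouse 706, 720 or 725 was left out, with a pseudocount of 0.1, without the filter, and with the deposited, trimmed mean and median ratio scalings, and the Thy1 call without mouse 720. The 9 T cell genes listed in both tables, 8 of them tested, summed to 17.3 to 25.8 CPM in sorted cells and 26.4 to 47.5 CPM in tumors, with Cd3e at 0 in the 4 sorted libraries, and the part of these cells in other results was not tested. Of 2 tested NK cell genes 1 was lower and 0 were higher. Nkg7, a granule protein of killer cells, was lower (-2.71), though not without mouse 725, while Klrk1 (0.88) was not called. Of 4 B and plasma cell genes 1 was higher and 0 were lower. Cd22, a B cell lectin, was higher (1.94), though not without mouse 706, 725 or 746 or with a pseudocount of 0.1. Jchain (-1.92) was not called.

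**Figure D3:**
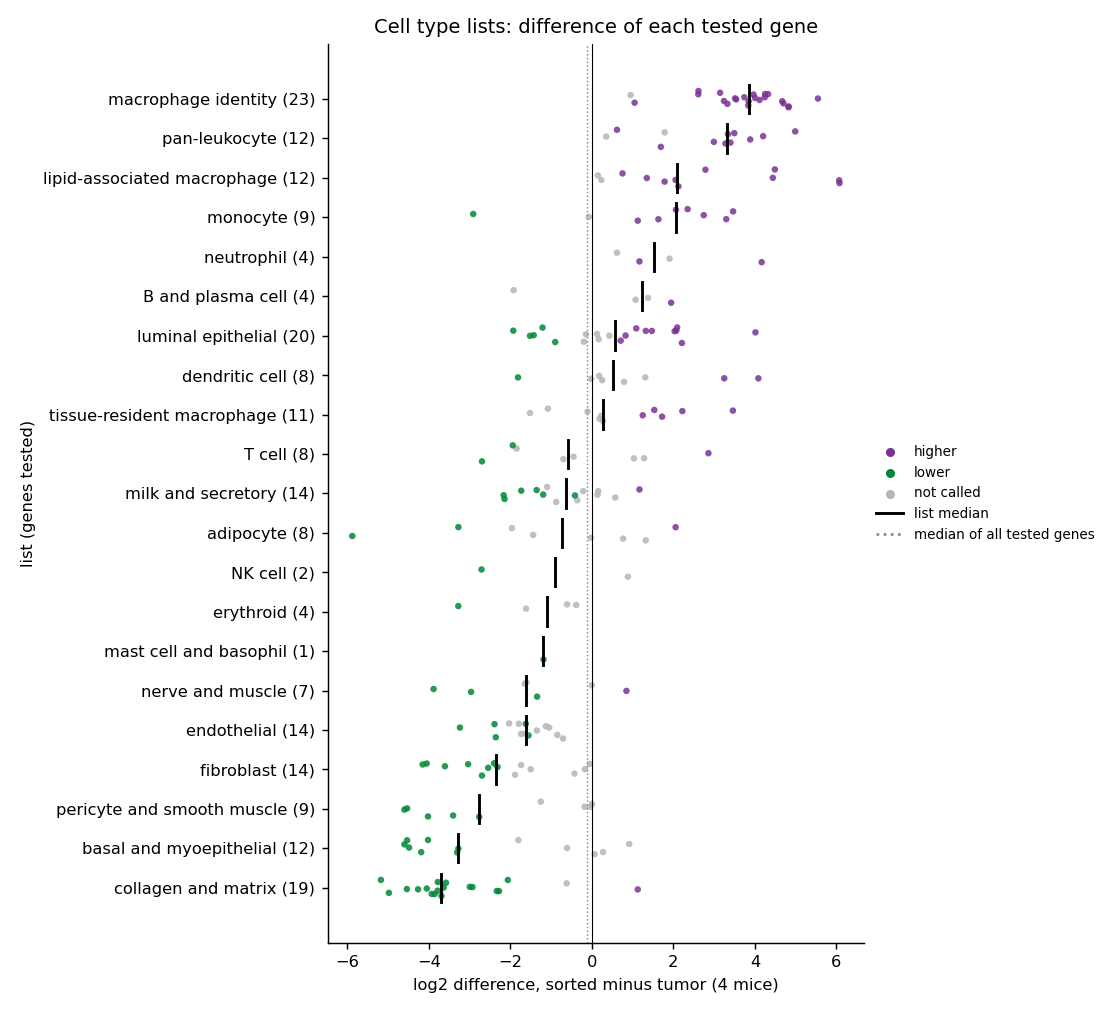
Log2 difference, sorted minus tumor, of each tested gene in 21 cell type lists (horizontal axis), 1 row per list with the number tested in brackets, sorted by the list median (black bar). Macrophage identity genes lie to the right (median 3.84), collagen and matrix genes to the left (median -3.69), and luminal epithelial genes on both sides of 0.

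Luminal epithelial transcripts were present in the sorted libraries, at a summed level no lower than in tumor when Cldn4 was included. Epcam, an adhesion protein of epithelium, was at 515, 670.0, 613 and 784 CPM in sorted cells and 903, 686, 686 and 585 CPM in tumors. The ranges overlapped, 1 of 4 mice was higher in sorted cells, and the difference of -0.15 (95% interval -0.47 to 0.18) did not pass the test (limma adjusted p = 0.528). It was positive without mouse 706 and with the deposited scaling. Cdh1, the adherens junction cadherin, gave 802 ± 101 against 733 ± 67.3 CPM (SD, n = 4 each; adjusted p = 0.552, limma). Over the 20 luminal genes of the list, the summed level was 7157 to 8855 CPM in sorted cells and 5819 to 6238 CPM in tumors. Single genes weighed on that sum in both directions. Cldn4 alone gave 2246 to 3090 CPM of it in sorted cells and 137 to 173 CPM in tumors. Ehf gave 482 to 657 CPM in sorted cells and 1922 to 2233 CPM in tumors. The sum without Cldn4 was not tested. The part of epithelial cells or of their free RNA in the other differences was not tested.

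Luminal genes moved in opposite directions within the list: 10 of 20 were higher in sorted cells and 5 were lower (median 0.57). Cldn4, a tight junction claudin, was at 2246, 2275, 2584 and 3090.1 CPM in sorted cells and 156, 173, 137 and 159 CPM in tumors (4.01, limma adjusted p = 5.2e-21). Every sorted library held more Cldn4 than any tumor by an order of magnitude. Krt8, which pairs with Krt18 in the keratin filaments of simple epithelium, was at 379, 572, 406 and 669.5 CPM in sorted cells and 99.3 to 139.6 CPM in tumors (2.09). Krt18 was at 518, 546, 508 and 866 CPM in sorted cells and 223 to 251 CPM in tumors (1.32). Ehf, an epithelial ETS transcription factor, went the other way, from 2233, 1922, 1978 and 1981 CPM in tumors to 511, 657, 482 and 492 CPM in sorted cells (-1.93). Neither direction overlapped between the materials for these 4 genes.

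Milk protein genes, read in secretory luminal cells, were lower in sorted cells or did not pass the test, apart from Ltf. Csn3, kappa-casein, was at 2124, 6143, 4267 and 3986 CPM in sorted cells and 8164, 11643, 8821 and 11332 CPM in tumors. It was lower in 4 of 4 mice without overlap, with a difference of -1.35 log2 units (SE 0.17, limma adjusted p = 9e-08). Of 14 milk and secretory genes 6 were lower and 1 was higher (median -0.64). With the deposited scaling 3 were lower and 4 higher of 12 tested (median 0.15), and with trimmed mean scaling 3 were lower and 2 higher. Muc15, a mucin of milk fat membranes that overlaps another gene, was lower by the test (-1.73), and Ltf, lactoferrin, of milk and of neutrophils, was higher (1.17). Lcn2, the iron carrier lipocalin, had a small difference of -0.42 whose call was lost without mouse 706 or 725, without the mouse block or the expression filter, with a pseudocount of 0.1, and with trimmed mean or median ratio scaling.

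STAT5 carries the prolactin signal that turns on casein genes, and promoters were searched in the same way for its palindrome TTCNNNGAA, which other STAT factors share. It was held by 9.55% of genes with a promoter, 8.12% of tested genes, 9.30% of those called higher, 7.87% of those called lower and 2 of 8 milk and secretory genes, Csn1s1 and Csn2, printed with the match in capitals; it starts 100 and 93 bases before the annotated start.
Csn1s1 promoter, chr5:87665958-87666257, plus strand: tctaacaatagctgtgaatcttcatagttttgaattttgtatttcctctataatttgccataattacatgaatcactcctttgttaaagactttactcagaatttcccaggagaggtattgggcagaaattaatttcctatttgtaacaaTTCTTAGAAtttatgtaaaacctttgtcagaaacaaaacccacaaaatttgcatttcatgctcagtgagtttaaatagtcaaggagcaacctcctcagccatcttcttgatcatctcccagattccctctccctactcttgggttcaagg
Csn2 promoter, chr5:87699376-87699675, minus strand: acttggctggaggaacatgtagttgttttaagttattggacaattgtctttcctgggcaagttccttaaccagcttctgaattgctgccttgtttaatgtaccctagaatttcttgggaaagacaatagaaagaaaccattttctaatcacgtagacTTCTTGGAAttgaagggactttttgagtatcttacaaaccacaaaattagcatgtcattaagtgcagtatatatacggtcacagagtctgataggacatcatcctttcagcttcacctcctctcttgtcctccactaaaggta
Csn1s1, alpha-S1-casein, was at 11.5, 11.6, 6.93 and 0.891 CPM in sorted cells and 65.1, 69.8, 7.77 and 20.9 CPM in tumors, lower in sorted cells (-2.14, limma adjusted p = 0.00211). Csn2, beta-casein, was at 0, 0, 0.467 and 0 against 15.8, 9.17, 0.0353 and 2.35 CPM, and its call (limma adjusted p = 0.0471) was lost without mouse 706, 720 or 746, without the mouse block, with a pseudocount of 0.1, and with the deposited, trimmed mean and median ratio scalings.

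Some myoepithelial and smooth muscle genes were among the most depleted, while others in the same lists did not pass the test. Of 12 basal and myoepithelial genes 7 were lower and none was higher (median -3.29). Of 9 pericyte and smooth muscle genes 5 were lower and none higher (median -2.77), and those 5 include the 3 shared with the first list, Acta2, Cnn1 and Myh11. Not called were Itgb4 (0.07) and Lgals7 (-0.61) of the first list and Notch3 (-0.03) and Mcam (-0.00026) of the second, among others. Mylk, myosin light chain kinase, was at 6.92, 15.8, 21.5 and 11.01 CPM in sorted cells and 376, 297, 398 and 201 CPM in tumors (-4.49). Acta2, smooth muscle actin, was at 12.3, 10.5, 28.2 and 26.9 against 445, 258, 340.3 and 218 CPM (-4.02), and Oxtr, the oxytocin receptor by which myoepithelium expels milk, fell by 4.19. Cnn1, calponin of smooth muscle, was at 0, 0, 2.20 and 0 CPM in sorted cells and 23.6 to 47.5 CPM in tumors. Myh11, smooth muscle myosin, was at 0.284, 2.06, 1.13 and 2.99 CPM in sorted cells and 34.99 to 93.2 CPM in tumors. Mylk, Acta2, Oxtr, Cnn1 and Myh11 did not overlap between the materials. Rgs5, a pericyte regulator of G protein signaling, was at 8.99 ± 6.63 against 87.5 ± 19.7 CPM (-3.40, SD, n = 4 each). In the sorted cells outside the pairs Rgs5 was at 64.8 in mouse 775 and 164 in mouse 867, the latter above every tumor.

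Collagen and other matrix genes were lower in sorted cells in nearly every case. Of 19 collagen and matrix genes 17 were lower in sorted cells and 1, Fn1, was higher, with a median of -3.69 and mouse medians from -4.65 (706) to -2.63 (746). Summed, the list held 312, 879.7, 673 and 788 CPM in sorted cells and 4544, 5565, 4627 and 3806 CPM in tumors. Bgn, the proteoglycan biglycan, was at 35.3, 74.8, 78.1 and 56.9 CPM against 912, 1166, 1115 and 794 CPM (-4.05, limma adjusted p = 1.1e-19). Each sorted library of the 4 mice held less Bgn than any tumor by an order of magnitude. In the sorted cells outside the pairs Bgn was at 264 in mouse 775 and 217 in mouse 867, a smaller gap. Col1a2, a chain of type I collagen, was at 0.284, 19.999, 9.80 and 2.61 CPM against 230.4, 336, 128 and 177 CPM. Lox, the collagen crosslinking oxidase, was at 4.26, 9.08, 3.73 and 0.509 CPM against 134, 169, 139 and 116 CPM, and Col5a1, a chain of type V collagen, ranged from 0 to 9.29 CPM in sorted cells and from 50.5 to 93.7 CPM in tumors. These 3 did not overlap between the materials in the 4 mice either. In the sorted cells of mouse 867, outside the pairs, Col1a2 (196 CPM) and Col5a1 (58.8 CPM) lay within the tumor ranges. Fn1, fibronectin, which macrophages also make, was at 109.8, 574, 169.7 and 260.0 CPM in sorted cells and 140.3, 109.5, 111 and 70.4 CPM in tumors (1.13), with the highest value in mouse 720 and overlapping ranges.

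Among 14 fibroblast genes 8 were lower and none higher (median -2.36). Lum, the collagen-binding proteoglycan lumican, was at 0, 3.23, 0.933 and 0.0636 CPM in sorted cells and 44.2, 44.4, 19.9 and 14.4 CPM in tumors (-4.05), and Pdgfra, a growth factor receptor of fibroblasts, differed by -2.31 and the transcription factor Prrx1 by -3.04. Dcn, decorin, another matrix proteoglycan, was at 46.8, 43.8, 22.1 and 91.8 against 67.2, 66.2, 57.5 and 54.7 CPM with overlapping ranges (limma adjusted p = 0.266; its sign turned with the deposited scaling). Among 14 endothelial genes 5 were lower and none higher (median -1.63; 3 of 11 were lower with the deposited scaling). Ptprb, an endothelial phosphatase, was at 0.0948, 2.95, 12.6 and 5.28 against 41.3, 41.5, 38.2 and 40.4 CPM (-3.24) and Cdh5, the endothelial cadherin, at 4.74, 11.98, 9.47 and 9.10 against 36.8, 63.9, 35.9 and 58.8 CPM (-2.36). Pecam1 (CD31) was lower too (-1.56), although not without mouse 720 or 725, with a pseudocount of 0.1 or with the deposited scaling.

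Some genes of fat, muscle and blood were read mainly in the tumors. Car3, carbonic anhydrase of fat and muscle, had the most negative difference of all tested genes (-5.88): it was at 0.0948, 3.57, 0.6 and 0.191 CPM in sorted cells and 76.5, 109.6, 258 and 50.1 CPM in tumors, highest in the tumor of mouse 725. Cfd, the adipocyte protease adipsin, was listed at 0 in the 4 sorted libraries and at 2.90 to 19.2 CPM in tumors, and Myh4, a fast muscle myosin, was at 0 to 1.90 CPM against 8.31 to 59.05 CPM. Hbb-bs, adult beta-globin, was at 0.0636 to 6.54 against 15.2 to 53.3 CPM; globin genes are near-identical copies whose reads can be split in counting. Sox10, a factor of neural crest and of mammary progenitors, was at 70.3 ± 26.3 against 172 ± 29.9 CPM (SD, n = 4 each). Counts in these lists were 1 higher and 2 lower of 8 for adipocytes and 1 and 3 of 7 for nerve and muscle. For erythroid cells they were 0 and 1 of 4, and among all tested genes 14.5% were higher and 18.7% lower. The adipocyte gene called higher was Lpl (239 ± 96.2 against 55.9 ± 17.7 CPM, SD, n = 4 each), which is also in the lipid-associated macrophage list. In the nerve and muscle list it was Mbp (0.85). Summed, the adipocyte list held 191 to 402 CPM in sorted cells and 104 to 401 CPM in tumors. The remaining genes with the most negative differences were Vgll3 (-5.28), a transcription cofactor, Scn7a (-4.97), a sodium channel, Id4 (-4.50), an inhibitor of helix-loop-helix factors, Ddr2 (-4.42), a collagen receptor, and Reln (-4.41), a secreted glycoprotein.

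Immediate early genes, which cells switch on within minutes of a stimulus, were raised without exception among those tested: 26 of 26 were higher in sorted cells, with a median of 3.86 and mouse medians from 3.78 to 4.36. Fosb, a partner of JUN in the transcription factor AP-1, was at 4546, 7411, 5349 and 6042 CPM in sorted cells and 13.1, 10.5, 11.7 and 29.99 CPM in tumors. Its difference of 8.50 (SE 0.19, limma adjusted p = 2.4e-27) was the most positive of all tested genes, a 361-fold level. Fos, its close relative, was at 2398, 2296, 2163 and 1719 CPM against 56.6, 63.5, 45.8 and 92.2 CPM (5.07), and Klf6, a zinc finger factor, at 2483 ± 323 against 208 ± 35.9 CPM (SD, n = 4 each; 3.58). Atf3, a stress-induced transcription factor, was at 797, 685, 574 and 696 CPM in sorted cells and 1.54, 2.37, 7.14 and 8.10 CPM in tumors. Summed over the list, sorted libraries held 19573 to 23490.0 CPM and tumors 937 to 1220.0 CPM, and the sorted cells of the 2 mice without tumor held 19845 in mouse 775 and 21763 in mouse 867. The materials did not come near each other for this list in any mouse. Enzymatic dissociation is known to induce these genes, and it was applied to every sorted library and to no tumor, so its part cannot be told apart from that of cell type.

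Heat shock genes rose less evenly, 11 of 14 being higher and 2 lower (median 0.92; 12 and 0 with the deposited scaling). Hspa8, the constitutive chaperone, was at 1557 ± 214 against 353 ± 44.7 CPM (SD, n = 4 each; 2.14), Hsp90ab1, a cytosolic chaperone, rose by 0.64, and Hspd1, the mitochondrial chaperonin, which overlaps Hspe1, was lower by the same test (-1.10; the call was lost with the deposited scaling). Of 14 inflammatory cytokine and NF-kB genes each was higher (median 3.35). Il1b, the cytokine interleukin 1 beta, was at 1379.6, 401, 668 and 605 CPM in sorted cells, highest in mouse 706, and at 10.8, 12.6, 7.67 and 10.05 CPM in tumors (5.95). Cd83, an activation marker of antigen-presenting cells, was at 469.7, 418, 593 and 449 CPM against 4.34, 3.64, 6.71 and 4.20 CPM (6.42), and Rel, an NF-kB subunit, rose by 3.40. Neither Il1b nor Cd83 overlapped between the materials.

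Chemokine ligands followed the same direction in 10 of 17 tested genes, with 1 lower (median 2.54). Ccl3, a chemokine that activated macrophages release, was at 141, 98.7, 102 and 123 CPM in sorted cells and 0.0576 to 2.47 CPM in tumors. Ccl4, a close relative, was at 205, 154, 183 and 161 CPM in sorted cells and 0.25 to 3.18 CPM in tumors. Cxcl16, a membrane-bound ligand of CXCR6 whose gene overlaps another, was at 723 ± 92.8 against 53.4 ± 15.7 CPM (SD, n = 4 each; 3.77), and Ccl6 rose by 2.35. Cxcl14, an epithelial and stromal chemokine, was lower (-2.17). Further genes with the most positive differences were Rgs1 (7.60), a regulator of chemokine receptor signaling, at 1491, 1116, 1511 and 1308 CPM against 4.17, 12.9, 2.65 and 7.95 CPM, Osm (6.76), the cytokine oncostatin M, Plaur (6.32), the urokinase receptor, and Rasgef1b (5.93), an exchange factor induced in activated macrophages. Tumor levels of Osm were 0.115 to 0.4 CPM, near the limit of 3 reads, so the size of its difference depends on the pseudocount.

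**Figure D4:**
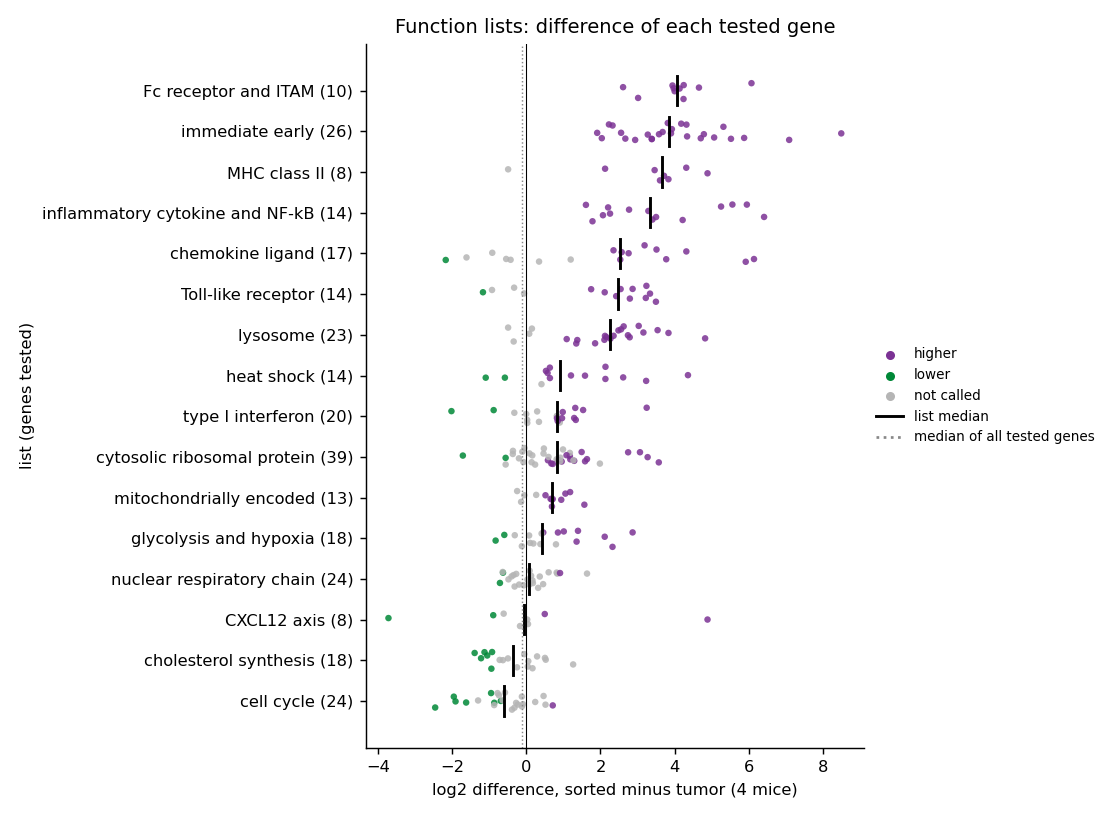
Log2 difference, sorted minus tumor, of each tested gene in 16 function lists (horizontal axis), laid out like the plot of cell type lists. Every immediate early (26), inflammatory (14) and Fc receptor (10) gene lies to the right and is called higher, while cell cycle and cholesterol synthesis medians lie left of 0, the latter at 0.12 with the deposited scaling.

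Lysosomal genes were raised in 19 of 23 cases and lowered in none (median 2.27). Psap, the precursor of lipid-degrading saposins, was at 3747 ± 720.1 against 840.4 ± 171 CPM and the protease gene Ctsb, which overlaps Fdft1, at 1676 ± 217 against 345 ± 22.2 CPM (SD, n = 4 each). Of 18 glycolysis and hypoxia genes 8 were higher and 2 lower (median 0.43). Vegfa, the vessel growth factor, was at 988, 758, 547 and 729 CPM in sorted cells and 107, 108, 85.4 and 102 CPM in tumors (2.87), without overlap. Slc2a1, the glucose transporter GLUT1, rose by 2.12. Aldoa, a glycolytic enzyme that overlaps another gene, had a small difference of 0.46 whose call was lost without the mouse block, without mouse 706, 720 or 746, and with all 10 libraries. Among 20 type I interferon genes 9 were higher and 2 lower (median 0.83): Rsad2, the antiviral enzyme viperin, rose by 0.85, while Ifit1, an RNA-binding interferon target, was at 44.4, 84.95, 91.7 and 101 CPM in sorted cells and 283, 531, 259 and 252 CPM in tumors (-2.02) and Ifi44 was lower too (-0.88), though not with the deposited scaling.

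In the cell cycle and cholesterol synthesis lists the balance of calls depended on the scaling. Of 24 cell cycle genes 7 were lower and 1, the replication clamp Pcna, was higher (median -0.61), but with the deposited scaling 4 were lower and 3 higher (median -0.11). Ccna2, cyclin A2, was at 94.1, 57.04, 49.4 and 58.6 CPM in sorted cells and 249, 209.9, 186 and 151 CPM in tumors (-1.62) without overlap, Top2a, a DNA topoisomerase, differed by -0.95, and Mki67, the proliferation antigen Ki-67, by -0.69. The Top2a and Mki67 calls were lost with the deposited scaling, and that of Mki67 also without mouse 746. Of 18 cholesterol synthesis genes 6 were lower and none higher (median -0.37), whereas the deposited scaling gave 3 lower and 3 higher (median 0.12). Among the 6 were Hmgcs1 (-1.13) and Dhcr7 (-0.94), enzymes at the start and the end of the pathway, the latter not called with the deposited scaling. Cytosolic ribosomal protein genes were higher in 16 of 39 cases and lower in 2 (median 0.82), among them Rpl13, the called member of highest mean level (6390.3 ± 2094 against 741 ± 167 CPM, SD, n = 4 each); such genes have many processed copies, which makes their counts uncertain.

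Mitochondrially encoded genes differed between mice as much as between materials. Of 13 genes 9 were higher in sorted cells and none lower (median 0.69), but the mouse medians were -0.75 (706), 1.05 (720), 1.51 (725) and 0.53 (746). Their summed level was 14019, 51134, 68460.0 and 34652 CPM in sorted cells and 25103 to 26650.0 CPM over the tumors. mt-Co1, a subunit of cytochrome oxidase, rose by 1.05. Nuclear genes of the respiratory chain gave 1 higher and 2 lower of 24 (median 0.09), and 7 higher and 0 lower with the deposited scaling (median 0.58). Of all tested genes 14.5% were higher and 18.7% lower in the main fit.

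In the CXCL12 axis the ligand was lower in sorted cells, while the receptor did not pass the test. Cxcl12 (ENSMUSG00000061353, chromosome 6 from 117168535 to 117181367 in GRCm38) was at 3.13, 7.69, 11.7 and 27.7 CPM in sorted cells and 148, 153, 143 and 118 CPM in tumors. Every sorted library of the 4 mice was below every tumor, with a difference of -3.72 log2 units (SE 0.35, limma adjusted p = 2.3e-10), a 13.2-fold lower level. Sorted cells of the mice without tumor held more, 74.4 in mouse 775 and 148 in mouse 867, the latter within the tumor range. Cxcr4 (ENSMUSG00000045382, chromosome 1 from 128588199 to 128592293 in GRCm38), the floxed gene, was at 19.7, 169, 56.8 and 210.1 CPM in sorted cells and 58.2, 67.2, 90.4 and 102 CPM in tumors. It was higher in sorted cells of mice 720 and 746 and lower in those of mice 706 and 725, 1 mouse of each genotype in each direction, and its difference of 0.05 had a 95% interval from -0.56 to 0.65 (limma adjusted p = 0.928). Among the paired sorted libraries Cxcr4 was not lower in both of those labelled cKO than in both controls (the ranges overlapped), while outside the pairs it was at 80.3 in mouse 775 and 30.98 in mouse 867, lower in the cKO. Directions by genotype are those of the labels. Of the 8 genes of the axis 2 were higher and 2 lower, beside 14.5% higher and 18.7% lower among all tested genes. The list is short, and its counts were not tested against those shares. Cd74 and the G protein subunit Gnai2 (0.50, a call lost without mouse 720, 725 or 746) rose. Cxcl12 and Hmgb1 (-0.89), a chromatin protein that binds CXCL12 and overlaps another gene, fell, though Hmgb1 was not called with the deposited scaling.

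The comparison of sorted cells with tumor was then set between the genotypes. At a limma adjusted p under 0.05, 5 of 12919 genes (0.0387%) had a sorted-minus-tumor difference that differed between 2 cKO and 2 control mice, and 724 did at an unadjusted p under 0.05. Sparc, a matrix glycoprotein, was at 42.6, 57.7, 184 and 160.2 CPM in sorted cells of mice 706, 720 (control), 725 and 746 (cKO) and at 1219, 1441, 1568 and 998 CPM in tumors. Its drop was smaller in the cKO mice by 1.85 log2 units (SE 0.29, limma adjusted p = 0.00099), as both cKO sorted libraries were above both controls. Col3a1, a fibrillar collagen, was at 15.1, 27.4, 31.9 and 48.5 CPM in sorted cells and 617, 692, 288 and 323 CPM in tumors, a genotype difference of 2.01; its tumor level was lower in both cKO mice than in either control. H4c18, one of several genes for histone H4, was at 17.5, 3.65, 25.5 and 76.5 CPM against 235, 76.4, 100.2 and 17.2 CPM (3.94), and the tumor of mouse 746 was lowest. Hspa1a, the inducible heat shock protein, was at 564, 415, 364 and 233 CPM against 13.99, 7.27, 29.9 and 28.3 CPM (-2.17), so its rise was larger in control mice. Ccdc152 was at 159, 46.7, 619 and 532 CPM against 112, 92.1, 125 and 27.3 CPM (3.50); it overlaps Selenop, a secreted selenoprotein that was at 895, 882, 1074 and 903 against 462, 302, 466 and 368 CPM, so reads of the pair may be split between them.

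These 5 calls depended on the settings. None was made with a pseudocount of 0.1 (652 genes at an unadjusted p under 0.05, lowest adjusted p = 0.0633), without the intensity trend of limma (741 genes at an unadjusted p under 0.05, lowest adjusted p = 0.823) or without the mouse block (570 genes, lowest adjusted p = 0.380), by limma in each case. Leaving out a mouse leaves a genotype with 1 mouse, assumed to vary like the others: without mouse 706 only Ccdc152 was called, without mouse 720 there were 29 calls, the 5 genes included, and without mouse 725 or 746 there was none. In the sorted cells outside the pairs, Sparc was at 500.1 in mouse 775 and 715 in mouse 867 and Col3a1 at 231 in mouse 775 and 837 in mouse 867, each above the 4 paired sorted libraries, and Ccdc152 was at 276 in mouse 775 and 183 in mouse 867, with the control above the cKO. H4c18 was at 56.1 in mouse 775 and 2.91 in mouse 867, also with the control above the cKO, opposite in direction to its call. Hspa1a was at 346 in mouse 775 and 395 in mouse 867. With 2 mice in each genotype and 2 residual degrees of freedom before pooling over genes, differences of this kind were not resolved.

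**Figure D5:**
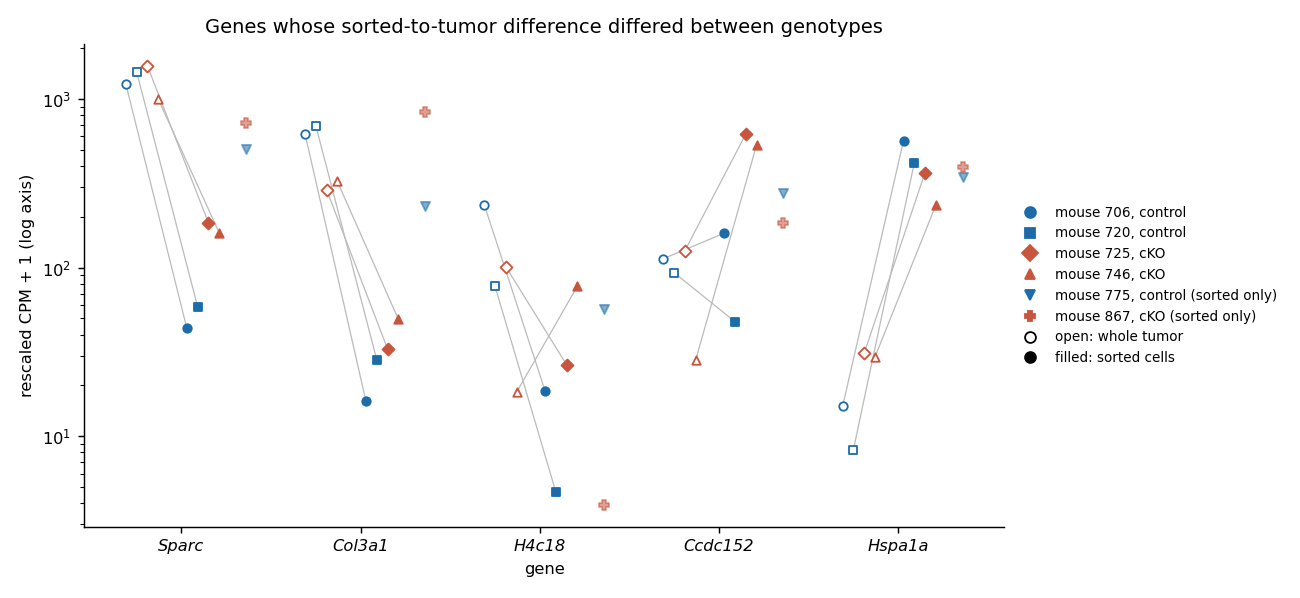
Levels of the 5 genes called for a genotype difference (rescaled CPM + 1, log axis) in whole tumor (open) and sorted cells (filled), with lines joining the libraries of a mouse and the sorted cells of mice 775 and 867 at the right of each gene. For Sparc and Col3a1 the 2 sorted libraries outside the pairs lie above the 4 paired ones, control 775 included.

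The sorted libraries of mice 775 and 867 followed most calls and departed in amount. Both lay above the tumor mean for 93.3% of the genes called higher (31.8% of all tested genes). They lay below it for 90.9% of those called lower (44.8% of all tested genes). The tumor mean is that of the 4 tumors that also entered the calls, so part of this match was fixed in advance. Their macrophage identity sums were 3530.1 in mouse 775 and 5444 in mouse 867, below the 7259 to 8312 CPM of the paired libraries, and their luminal sums were 9457 in mouse 775 and 8245 in mouse 867. Endothelial genes summed to 326 in mouse 775 and 754 in mouse 867 against 42.000 to 75.7 CPM in the paired sorted libraries and 185 to 227 CPM in tumors, and collagen and matrix genes to 2014 in mouse 775 and 4352 in mouse 867. In these 2 libraries the endothelial sums stood above every tumor, and the collagen sums above every paired sorted library. The collagen sum of mouse 867 lay within the tumor range of 3806 to 5565 CPM. With all 6 sorted and 4 tumor libraries and no block, 1911 genes were higher and 2271 lower, and Ptprb, Cdh5 and Pecam1 were no longer called, nor was Rsad2.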

How the data were processed

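RNA was extracted with an RNeasy kit, depleted of ribosomal RNA and sequenced, per the labels' protocols; STAR 2.7.8a, Partek and the GRCm38 (mm10) build are named in the submitters' processing notes, and strand and counting settings are not given in the sources used here. The labels call the deposited values normalized counts, but the values are on a log2 scale: undone as 2 to the power of the value minus 1, each library sums to 1e+06, so they were read as log2(CPM + 1). Low values were whole reads within 0.1 for 80.8% to 90.1% of cases, so no count test was run. Gene positions are from GENCODE (GRCm38) by gene identifier, promoters from RefSeq.

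Sorted and tumor values of mice 706, 720, 725 and 746 were joined on the gene identifier, restricted to 13600 protein-coding genes in both tables, rescaled to 1e+06 and tested with limma 3.58.1 (R 4.3.3; log2(CPM + 1), mouse as block, intensity trend, two-sided, Benjamini-Hochberg) on the 12919 genes averaging 1 CPM or more; the genotype term had 2 residual degrees of freedom. The labels name the mouse, so pairing comes from the animal; deviations of the 2 libraries of a mouse correlated at 0.021 to 0.038 over genes, and those of different mice at -0.030 to 0.009. P-values, SEs and intervals rest on the spread between 4 mice (3 residual degrees of freedom) after limma pooled it over genes of like level. They can therefore be smaller or narrower than a gene's own 4 differences would give. For Cxcr4 those differences were -1.52, 1.32, -0.66 and 1.04, beside an interval of -0.56 to 0.65. The fit was tested on simulated data.

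The 37 gene lists and the choice of libraries were made with earlier results of these data known. Of 567 list symbols, 493 were in both tables. Genes were named by rule: 10 markers; per direction the 12 largest differences among called genes that averaged 20 CPM or more and moved alike in 4 of 4 mice; per list up to 3 called members in the list's main direction and up to 2 others, by mean level; and genes called for genotype. Spi1, C1qc, Cd53, Csn1s1 and Csn2 were chosen after their values or motifs were seen. Alternatives covered the pseudocount, the filter, the scaling, the block, the trend, a minimum difference and each mouse left out. For single genes compared between the materials, calls were not followed without the trend or with the minimum difference.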

Additional observations from a re-analysis of the deposited data

Results flagged for a closer look

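In 164 sets of 4 mouse differences (named genes and list medians), 1 mouse stood apart from the other 3 by Dixon's 95% limit in 6, where chance gives about 1 in 20. Mylk was at -5.57 in mouse 706 and between -4.15 and -4.07 in the others, so the difference was negative in each. S100a8 was at 3.12 in mouse 706 and between -0.32 and -0.03 in the others. Cd4 was at 1.24 in mouse 746 and between 3.28 and 3.56 in the others. The monocyte median was 1.30 in mouse 706 (1.87 to 1.99 in the others), the endothelial median -0.71 in mouse 725 (-2.54 to -2.26), and the pericyte and smooth muscle median -4.30 in mouse 720 (-2.23 to -2.02).

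The sorted-minus-tumor difference of 5 genes differed between genotypes by limma, as cKO minus control: Sparc by 1.85 (adjusted p = 0.00099), Col3a1 by 2.01 (adjusted p = 0.018), H4c18 by 3.94 (adjusted p = 0.018), Ccdc152 by 3.50 (adjusted p = 1.7e-05) and Hspa1a by -2.17 (adjusted p = 0.0255). Each genotype had 2 mice, and no call was made without mouse 725 or without mouse 746.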

How the results depend on the processing

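Against 1874 genes higher and 2410 lower, the deposited scaling gave 3538 and 1049, no intensity trend 1199 and 1218, a test against a log2 difference of 1 gave 649 and 319, and the control mice alone, chosen after the data were seen, 1179 and 1275. Without each mouse in turn the counts were 1514 to 1700.0 higher and 1828 to 2073 lower. Without the mouse block they were 1818 and 2335, and no genotype difference (0) was called. The 5 genotype calls became 0 with a pseudocount of 0.1, 2 without the expression filter, 2 with median ratio scaling, 0 without the trend, and 0 to 29 without each mouse (chosen after the data were seen). Of 1767 gene values under 14 settings 1694 kept direction and side of the threshold, 60 lost the call, 1 gained it and 12 turned sign. These 14 settings left out the fit without the intensity trend and the test against a log2 difference of 1. Both of those lowered the counts of called genes. The deposited scaling turned Epcam to 0.39, Tlr4 to 0.21, Lcn2 to 0.12 and Dcn to 0.10, and the medians of T cell (0.37), milk and secretory (0.15), CXCL12 axis (0.33) and cholesterol synthesis (0.12) genes; the CXCL12 axis median was 0.0138 and 0.0153 with trimmed mean and median ratio scaling. All 10 libraries with no block gave Cxcr4 -0.18, Dcn 0.17 and the nuclear respiratory chain -0.0141. Leaving out each mouse gave ranges of -0.335 to 0.0758 for Epcam (highest without 706), -0.220 to 0.926 for S100a8 (lowest without 706), -0.380 to 0.566 for Cxcr4 (negative without 720 or 746), -0.315 to 0.63 for Cd163 (negative without 720), -0.00869 to 0.205 for Cdh1 and -0.0403 to 0.181 for the nuclear respiratory chain (both negative without 746); the adipocyte median was 0.77 with a mean of at least 5 CPM. The cause of each change was not tested. In sorted libraries 3 reads equal 0.153 to 0.284 CPM, so differences of genes near that level depend on few reads.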
